A study of Mus musculus with 22 samples.

Results

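The livers of mice lacking the glucagon gene (Gcg KO, called KO here) and of wild-type mice (WT) were compared in how their mRNA responded to glucagon infused at 150 µg/d. The response of a genotype is its infused minus its uninfused level, and the KO response minus the WT response is the interaction: a positive interaction means that a gene moved further up, or less far down, in KO than in WT. Of the 22 libraries of the series, 14 enter this comparison and were chosen by the genotype and dose in their labels. They are 4 infused KO livers (libraries 19 to 22), 3 uninfused KO livers (libraries 4 to 6), 4 infused WT livers (libraries 15 to 18) and 3 uninfused WT livers (libraries 1 to 3). The other 8 libraries, 4 per genotype at 30 µg/d, helped to estimate the spread and are set beside the high dose at the end. The labels give the genotype and the dose, but no strain, sex, age, route or length of infusion. Nor do they say that every library is its own mouse. The p-values therefore rest on how far libraries of a group differ, and that spread may be technical. The labels also do not say what, if anything, the uninfused mice received.

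Glucagon is the pancreatic hormone of fasting. It binds Gcgr on hepatocytes and raises cyclic AMP, and protein kinase A then activates CREB, a transcription factor that binds cAMP response elements in promoters such as that of Pck1. In liver it is known for promoting gluconeogenesis, the uptake and breakdown of amino acids and the synthesis of urea, and mice without glucagon action have high amino acids in blood. The Gcg gene also encodes other peptides of the same precursor, which a glucagon infusion does not replace.

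All levels are in RPKM as the authors deposited them, which are reads scaled to a transcript's length and the library's depth. Changes are differences of log2(RPKM + 1). This scale understates the change of a low gene. A gene was called where limma's adjusted p was under 0.05 among 11590 genes tested. The steps between low values put the libraries at an estimated 11.4 to 17.9 M reads, and Spearman's rho between libraries of one group was 0.963 to 0.974. Gcg was listed at 0 in all 22 libraries, so the deleted gene does not check the genotype labels in liver. The 8 hepatocyte markers, among them Alb and Hnf4a, were above 0 in all 14 libraries, and the pancreas markers Ins1, Ins2, Cpa1 and Prss1 were at 0 in all of them.

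Libraries 4, 19 and 17 stood apart. Library 4, an uninfused KO liver, had a summed 2719 RPKM over 24 male-biased liver genes, against 27170 and 45530 RPKM in libraries 5 and 6, and 906.8 RPKM over 24 female-biased genes, against 84.3 and 52.4 RPKM. Its 28 cell cycle genes summed to 170.2 RPKM, against 60.4 and 57.8 RPKM in libraries 5 and 6. Library 19, an infused KO liver, and library 17, an infused WT liver, had the lowest mean of the amino acid catabolism genes in their groups, at 6.44 and 6.49 log2 units, where the other infused libraries lay between 6.83 and 7.01. Both also had the highest mean of the acute phase genes in their groups, at 9.11 log2 units each (the plot of list levels per library). What these libraries share was not tested.

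**Figure D1:**
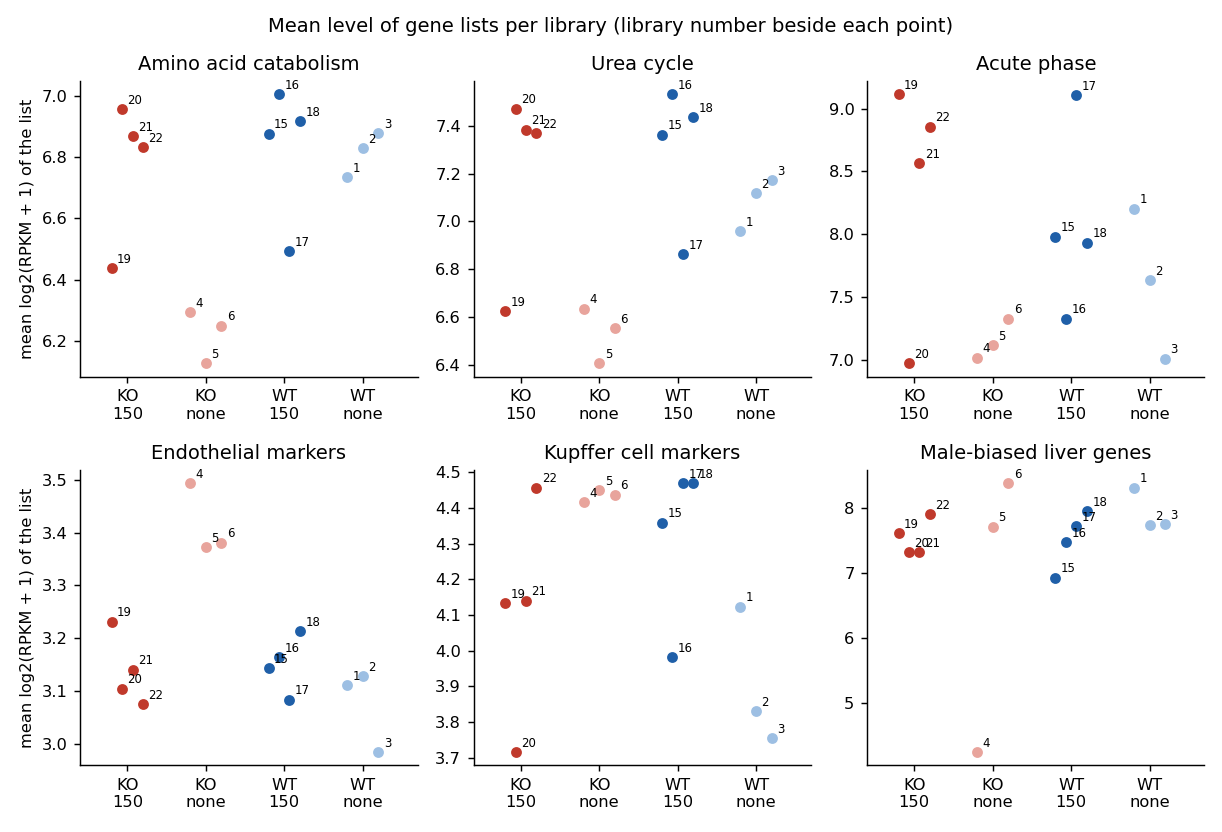
Mean log2(RPKM + 1) of 6 gene lists (vertical axes) in each of the 14 libraries (points, with the library number), by group: infused KO, uninfused KO, infused WT and uninfused WT; 150 is the dose in µg/d. Libraries 19 and 17 lie below the rest of their groups in amino acid catabolism and urea cycle, and library 4 lies at 4.24 in male-biased genes, below all others.

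How far the genotypes differed in their response was tested first. No gene was called in the interaction (0% of the genes tested, smallest adjusted p = 0.108), although 1187 genes (10.2%) had an unadjusted limma p under 0.05, 501 of them positive and 686 negative. With limma's array weights, which count an outlying library less, 66 genes were called, 34 positive and 32 negative. Without library 19, 5 genes were called, namely Oat, Slc25a48, Lap3, Lhpp and Arfgap2, and without any other single library 0 or 1 was. The 95% interval of the interaction lay within −1 to 1 log2 units for 10109 genes (87.2%), and it reached beyond that range for the other 1481. The interval reached a median of 0.367 log2 units to either side.

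The single responses differed in their number of calls. In KO, 315 genes changed (2.72% of those tested), 152 of them higher (1.31%) and 163 lower (1.41%) in infused livers. In WT, 34 genes changed (0.293%), 10 of them higher (0.0863%) and 24 lower (0.207%). At an unadjusted p under 0.05 the counts were 2136 in KO and 1405 in WT. That a gene passed in KO and not in WT does not show that the responses differ, since no interaction passed. Without library 4 the KO response held 61 calls, 55 of them among the 315, and without library 19 it held 585. The KO calls also fell to 74 without library 22, 115 without 21, 132 without 5 and 194 without 20. Without library 3 the WT response held 0 calls, and without library 19 it held 60. The WT calls also fell to 2 without library 15, 4 without 1, and 5 without 2 or 16.

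Responses in the genotypes share no library, so their directions can be set against each other. Of the 152 genes that rose in KO, 125 (82.2%) had a positive response in WT, where 46.2% of all genes tested did, with a median response of 0.73 in KO and 0.21 in WT. Of the 163 that fell in KO, 127 (77.9%) had a negative response in WT, with medians of −0.54 in KO and −0.13 in WT. Read from the WT side, all 10 genes that rose in WT had a positive response in KO, where 41.5% of all genes tested did. Their medians were 0.69 in KO and 0.75 in WT. Of the 24 that fell in WT, 22 had a negative response in KO. Their medians were −0.12 in KO and −0.63 in WT, and the KO median over all genes tested was −0.04. The genes chosen by a call have an overstated change in the genotype that chose them. Across all genes tested, which are not independent replicates, Spearman's rho of the KO and WT responses was 0.216 and Pearson's r 0.306.

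The average of the KO and WT responses, a test of the shift they share, called 524 genes (4.52%), 215 of them higher (1.86%) and 309 lower (2.67%) in infused livers, and 282 of the 524 were called in neither genotype alone. The average response called 714 genes without library 19, 315 without library 4 and 227 without library 3, and the count fell to between 281 and 346 without library 1 (305), 2 (281), 15 (318), 16 (346), 21 (326) and 22 (284) too. The share of higher genes was 41%, and it was 60.5% when libraries were scaled by the median of ratios and 54.7% when they were quantile normalized, so the balance of rises and falls depends on the scaling. Of the 524, 518 had the same sign in KO and WT. Choosing genes by the average of both responses favours equal signs, so this count is no separate evidence of a shared response. The KO change was the larger one in 346 (66%), as it was in 55.8% of all genes tested. For the genes higher in the average, the median response was 0.58 in KO and 0.41 in WT, and for those lower it was −0.41 in KO and −0.35 in WT. Of the 524, 394 (75.2%) had an interaction interval within −1 to 1, and 106 (20.2%) had an unadjusted interaction p under 0.05.

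**Figure D2:**
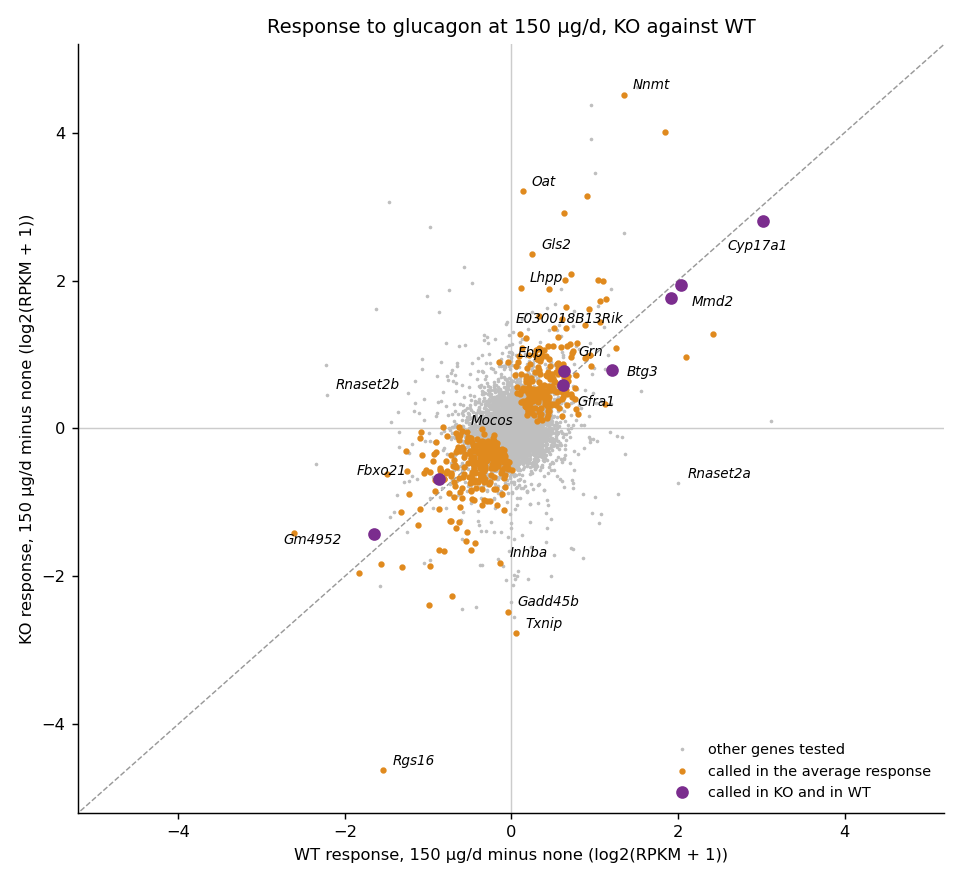
Response to 150 µg/d in KO (vertical axis) against that in WT (horizontal axis), both in log2(RPKM + 1), for the 11590 genes tested (points). The dashed line marks equal responses, and orange points were called in the average response. The 8 genes called in KO and in WT (purple) lie near it, while Oat and Gls2 lie high above it and Txnip, Inhba and Gadd45b far below it, near 0 in WT.

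Genes called in both genotypes were few, and the calls had one direction per gene: 8 genes (0.069%) changed in both with the same sign and 0 with opposite signs. Those higher in infused livers were Cyp17a1, Mmd2, E030018B13Rik, Btg3, Grn and Gfra1, and those lower were Gm4952 and Fbxo21. The 95% interval of the interaction included 0 for each of the 8. When libraries were scaled by the median of ratios or quantile normalized, the 6 higher genes stayed called in both genotypes. Gm4952 and Fbxo21 did not.

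Grn encodes progranulin, a precursor of secreted and lysosomal peptides (chromosome 11, 102430507 to 102436809, GRCm38). It stood at 81.8, 67.8, 97.1 and 100 RPKM in infused KO livers, 57.9, 43.7 and 47.8 RPKM in uninfused KO livers, 87.5, 72.2, 76.8 and 81.5 RPKM in infused WT livers and 51.6, 53.99 and 47.01 RPKM in uninfused WT livers. Every infused library lay above every uninfused one in either genotype. Grn rose by 0.78 ± 0.13 in KO (SE, limma adjusted p = 0.00373) and by 0.63 ± 0.13 in WT (adjusted p = 0.0456), and the interaction was 0.15 (95% interval −0.23 to 0.52).

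Gfra1, the receptor subunit that binds the growth factor GDNF (chromosome 19, 58235581 to 58455946), had 52.2, 45.5, 59.5 and 61.3 RPKM in infused KO livers and 31.6, 38.5 and 37.5 RPKM in uninfused KO livers. In WT it had 61.4, 47.7, 60.9 and 58.5 RPKM in infused and 37.6, 35.9 and 36.1 RPKM in uninfused livers. The infused and uninfused libraries again did not overlap, and the levels of the genotypes did. With rises of 0.59 in KO and 0.62 in WT, the interaction was −0.03 (95% interval −0.35 to 0.29), the narrowest interval among the 8 genes.

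Cyp17a1, a steroid hydroxylase of adrenal and gonad (chromosome 19, 46667165 to 46673000), had the largest average response of the 8. Its levels were 1.596, 11.3, 13.7 and 31.2 RPKM in infused KO livers, 0.973, 0.0385 and 0.975 RPKM in uninfused KO livers, 22.3, 31.6, 19.3 and 44.7 RPKM in infused WT livers and 1.88, 2.37 and 3.66 RPKM in uninfused WT livers. Infused libraries lay above uninfused ones in both genotypes, and uninfused KO lay below uninfused WT. The rise was 2.8 in KO (adjusted p = 0.0165, limma) and 3.03 in WT (adjusted p = 0.0386). The interaction of −0.23 (95% interval −1.95 to 1.5) had the widest interval of the 8, and the lowest infused KO value was that of library 19. Over 23 alternative settings this interaction lay between −0.74 and 0.73, with the other sign in 4.

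Mmd2, a membrane protein of the progestin and adipoQ receptor family (chromosome 5, 142563480 to 142608936), differed between the genotypes with and without infusion. It had 1.33, 3.16, 2.02 and 8.47 RPKM in infused KO livers, 0, 0.033 and 0.159 RPKM in uninfused KO livers, 15.9, 12.3, 15.6 and 16.2 RPKM in infused WT livers and 2.86, 3.98 and 2.09 RPKM in uninfused WT livers. Infused livers lay above uninfused ones within each genotype, and KO livers below WT livers within each treatment. KO minus WT was −1.97 at 150 µg/d (limma adjusted p = 0.0112) and −1.88 without infusion (adjusted p = 0.0146). When each of the 14 libraries was left out in turn, the difference at 150 µg/d stayed called in 10 fits and was lost without library 15, 16, 19 or 21 (limma adjusted p = 0.057 without library 19), and that without infusion stayed called in 12 and was lost without library 2 or 4 (adjusted p = 0.0727 without library 4). The interaction of −0.09 (95% interval −1.02 to 0.85) rests on the pseudocount, since uninfused KO values are near those of 1 read: it was 1.99 with a pseudocount of 0.1. The same holds for E030018B13Rik, which had 2.17, 3.01, 2.06 and 4.104 RPKM in infused and 0, 0 and 0.337 RPKM in uninfused KO livers, and 8.62, 7.28, 4.63 and 6.83 RPKM in infused and 0.933, 1.09 and 1.11 RPKM in uninfused WT livers. Its interaction of −0.15 (95% interval −1.2 to 0.91) was 1.54 with a pseudocount of 0.1.

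Btg3, of a family of antiproliferative proteins, had 5.83, 7.16, 10.2 and 8.42 RPKM in infused and 4.17, 4.05 and 4.03 RPKM in uninfused KO livers, against 6.86, 4.28, 7.25 and 7.56 RPKM in infused and 2.88, 1.896 and 1.87 RPKM in uninfused WT livers. Fbxo21, a substrate-binding subunit of a ubiquitin ligase, had 27.9, 18.2, 27.6 and 22.6 RPKM in infused and 47.9, 35.03 and 34.6 RPKM in uninfused KO livers, against 21.4, 21.1, 23.7 and 20.6 RPKM in infused and 47.04, 36.8 and 37.9 RPKM in uninfused WT livers. The infused and uninfused libraries of each genotype were separate for Btg3 and Fbxo21, while for Gm4952 the infused KO livers had 50.8, 22.2, 17.2 and 14.2 RPKM and the uninfused ones 80.05, 67.1 and 47.3 RPKM, so that library 19 overlapped. The interaction was −0.43 (95% interval −1.01 to 0.16) for Btg3, 0.18 (95% interval −0.34 to 0.71) for Fbxo21 and 0.23 (95% interval −0.76 to 1.21) for Gm4952. When each of the 14 libraries was left out in turn, Mmd2 stayed called in KO in all 14 fits and in WT in 11, Grn in 14 and 5, Gfra1 in 13 and 10, E030018B13Rik in 11 and 8, Cyp17a1 in 10 and 6, Gm4952 in 9 and 4, Btg3 in 8 and 11, and Fbxo21 in 4 and 4.

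Beyond the 8, several genes called in the average had responses of nearly one size, chosen here after their values were seen. Ces2a, a carboxylesterase, had 78.5, 99.4, 60 and 60.5 RPKM in infused and 248, 129.7 and 119 RPKM in uninfused KO livers, against 90.1, 116, 55.1 and 74.3 RPKM in infused and 164, 160.5 and 204 RPKM in uninfused WT livers. No infused library overlapped with an uninfused one of its genotype, and the responses were −1.09 in KO and −1.1 in WT with an interaction of 0.01 (95% interval −0.72 to 0.74). Csrp2, a LIM domain protein, had responses of 0.99 in KO and 0.94 in WT and an interaction of 0.06 (95% interval −0.65 to 0.76). For Cyr61, a matricellular growth factor gene, the responses were −1.96 in KO and −1.83 in WT, but its interval of −1.75 to 1.5 was wide. The direction of the interaction turned in 8 of 23 alternative settings for Ces2a, in 4 for Cyr61 and in 3 for Csrp2, as a value near 0 does.

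A KO response above the WT response was seen, with no call, in genes of enzymes and carriers that were low in uninfused KO livers. Oat, ornithine aminotransferase, which converts ornithine to glutamate semialdehyde (chromosome 7, 132557475 to 132576398), had 245, 910.4, 822 and 855 RPKM in infused KO livers and 52.1, 71.9 and 80.6 RPKM in uninfused KO livers. In WT it had 1080, 949.5, 350.2 and 824 RPKM in infused and 556, 752 and 722 RPKM in uninfused livers. The uninfused KO group lay below every other library, infused KO and WT overlapped, and the low infused values were those of libraries 19 and 17. The interaction was 3.07 (95% interval 1.9 to 4.24), with an unadjusted limma p of 2.53e-05 and an adjusted p of 0.108.

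Ebp, an isomerase of cholesterol synthesis (chromosome X, 8185329 to 8193512), had the smallest p of all genes. It had 148, 183, 138 and 117 RPKM in infused and 71.2, 78.5 and 82.9 RPKM in uninfused KO livers, against 128, 134, 150.1 and 124 RPKM in infused and 136, 133 and 141 RPKM in uninfused WT livers. Infused and uninfused KO livers did not overlap, infused and uninfused WT livers did, and the interaction was 0.93 (95% interval 0.59 to 1.27) with an unadjusted limma p of 1.68e-05 (adjusted p = 0.108). Ebp is one of 24 cholesterol synthesis genes tested and the only one called in KO (1 higher, 0 lower, against 1.31% and 1.41% of all genes). Of the 24, 22 had a positive interaction, against 47.7% of all genes, with a list median of 0.20 against −0.01 over all genes. Only Ebp among them had an unadjusted p under 0.05. Without library 4 the list median was 0.19, with 19 of 24 positive.

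Slc25a48, a mitochondrial carrier, had 4.63, 5.41, 5.91 and 6.03 RPKM in infused and 2.62, 2.698 and 2.17 RPKM in uninfused KO livers, against 5.84, 7.69, 4.64 and 5.92 RPKM in infused and 6.03, 7.99 and 6.28 RPKM in uninfused WT livers. Lhpp, a phosphatase gene on the same chromosome as Oat (chromosome 7, 132610615 to 132706420), had 16.96, 54.95, 49.2 and 49.8 RPKM in infused and 10.2, 9.397 and 9.52 RPKM in uninfused KO livers, against 63.8, 53.5, 24.5 and 52.4 RPKM in infused and 35.5, 46.6 and 46 RPKM in uninfused WT livers. Uninfused KO livers were the lowest group for Slc25a48 and Lhpp, without overlap with any other, and the interactions were 1.05 (95% interval 0.64 to 1.45) and 1.79 (95% interval 0.83 to 2.76) in that order. Nnmt, which methylates nicotinamide, had 141, 288, 315 and 355 RPKM in infused and 1.52, 16.4 and 32.8 RPKM in uninfused KO livers, against 327, 306, 175 and 349.6 RPKM in infused and 120.1, 106 and 103 RPKM in uninfused WT livers. Here infused lay above uninfused livers in WT as well, with a WT response of 1.35 (limma adjusted p = 0.326) beside 4.51 in KO (adjusted p = 0.000715). The Nnmt interaction was 3.16 (95% interval 1.54 to 4.79), and it was 2.08 without library 4, the lowest of the fits that left out 1 library.

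The rest of the 10 positive genes taken by the naming rule were Miip, Sytl1, Gstm2, Bhlhe41, Rnaset2b and Arhgef19, with interactions between 1.03 (Bhlhe41) and 2.67 (Rnaset2b) and adjusted p from 0.183 to 0.205 in limma. Gstm2, a glutathione transferase of a family with similar copies, rose in KO by 0.89. Miip, Sytl1 and Arhgef19 rose in KO too, by 0.95, 1.2 and 1.0.

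**Figure D3:**
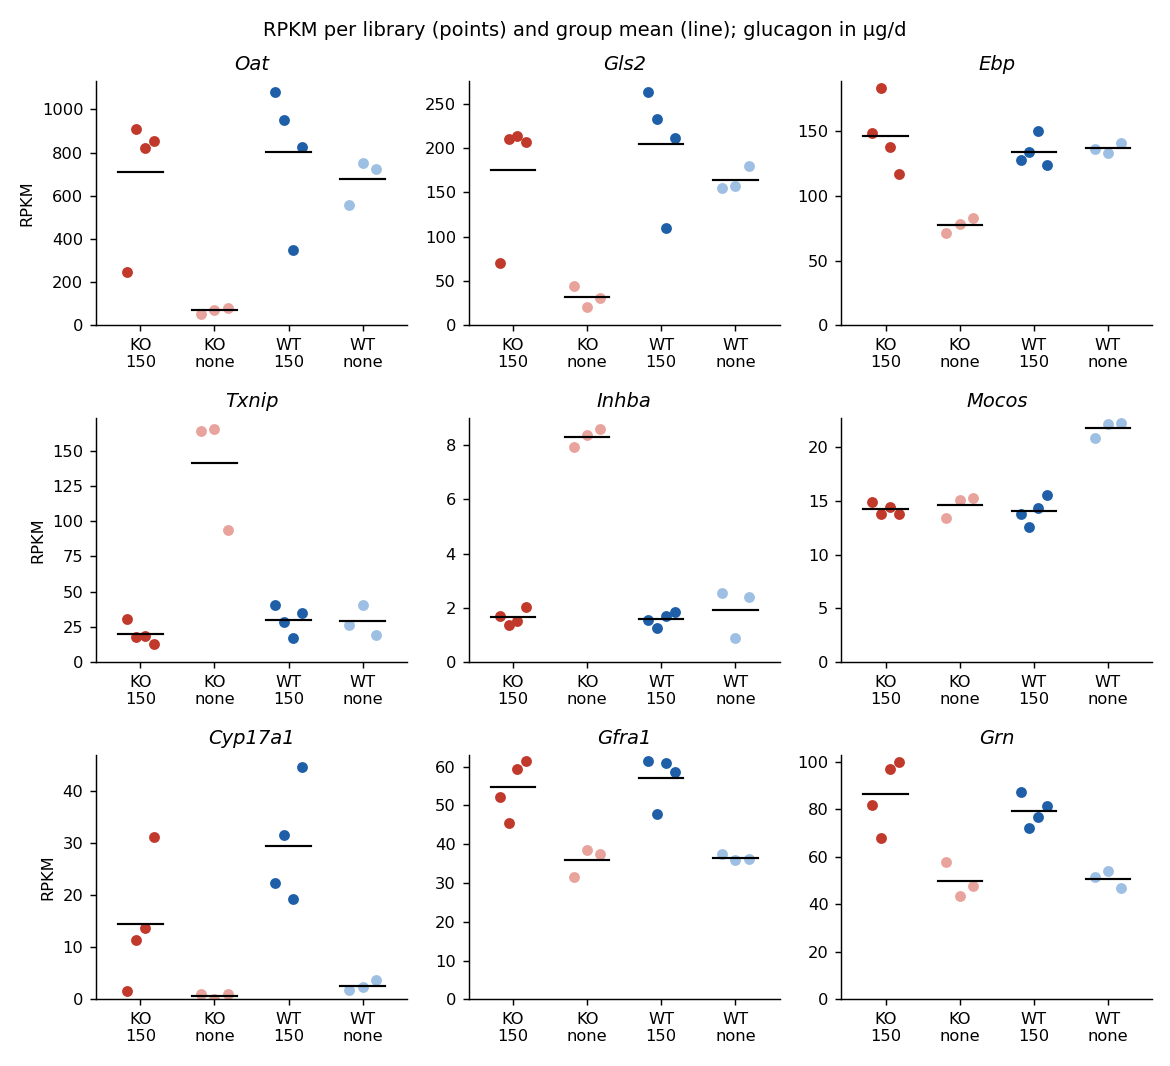
RPKM of 9 genes in each library (points) with the group mean (lines), for infused KO, uninfused KO, infused WT and uninfused WT livers; the vertical axes start at 0 and 150 is the dose in µg/d. Oat, Gls2 and Ebp are lowest, and Txnip and Inhba highest, in uninfused KO livers; Mocos is highest in uninfused WT livers; Cyp17a1, Gfra1 and Grn are higher in infused livers of both genotypes.

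The reverse pattern, a KO response below the WT response, was led by genes that were high in uninfused KO livers. Txnip, which binds thioredoxin and restrains glucose uptake (chromosome 3, 96557957 to 96561857), had 30.5, 18.2, 18.6 and 13.1 RPKM in infused KO livers and 164, 165 and 93.9 RPKM in uninfused KO livers. In WT it had 40.3, 28.5, 17.1 and 34.8 RPKM in infused and 26.6, 40.8 and 19.3 RPKM in uninfused livers. Uninfused KO livers lay above every other library, and the remaining groups overlapped. Txnip fell by 2.77 in KO (limma adjusted p = 0.00204) and its WT response was 0.06 (adjusted p = 0.976), for an interaction of −2.82 (95% interval −4.01 to −1.64).

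Inhba, a subunit of the activins (chromosome 13, 16004256 to 16031609), had 1.71, 1.37, 1.503 and 2.03 RPKM in infused and 7.92, 8.39 and 8.61 RPKM in uninfused KO livers, against 1.57, 1.25, 1.698 and 1.84 RPKM in infused and 2.55, 0.883 and 2.39 RPKM in uninfused WT livers. Its uninfused KO libraries were tightly grouped and far above all others, and the interaction was −1.68 (95% interval −2.49 to −0.88). Gadd45b, a growth-arrest and stress gene, had 0.902, 0.237, 0.694 and 0.51 RPKM in infused and 19.9, 8.68 and 2.296 RPKM in uninfused KO livers, against 0.51, 0.449, 0.444 and 0.416 RPKM in infused and 0.44, 0.727 and 0.333 RPKM in uninfused WT livers. Uninfused KO libraries were above all others but spread widely, with library 4 the highest, and the interaction was −2.44 (95% interval −3.83 to −1.06). Without library 4 the fall in KO was no longer called (−2.48 with all libraries, and −1.85 with an adjusted limma p of 0.0711 without library 4).

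Rhob, a small GTPase, fell by 1.11 in KO with an interaction of −1.02 (95% interval −1.57 to −0.47), and Fam131c fell by 1.01 in KO with −1.33 (95% interval −2.04 to −0.62). Fam213b had 7.902, 9.4, 10.1 and 23.1 RPKM in infused and 29, 36.1 and 24.2 RPKM in uninfused KO livers, against 7.86, 26.4, 23.2 and 35.5 RPKM in infused and 10.9, 8.76 and 8.496 RPKM in uninfused WT livers. In KO every infused liver lay below the uninfused ones, and in WT 3 of the 4 infused livers lay above them, but neither response was called (adjusted p = 0.112 in KO and 0.321 in WT, limma), and the interaction was −2.33 (95% interval −3.59 to −1.08).

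Rnaset2a and Rnaset2b are neighbouring near-identical copies, so the reads of one could have been counted for the other and their values are uncertain. Rnaset2a had 85.02, 18.3, 73.6 and 50.4 RPKM in infused and 89.7, 77.8 and 81.7 RPKM in uninfused KO livers, against 86.8, 95.5, 74.3 and 74.9 RPKM in infused and 24.6, 23.7 and 13.2 RPKM in uninfused WT livers. Rnaset2b had 33.8, 103, 17.9 and 58.5 RPKM in infused and 24.8, 39.7 and 32.4 RPKM in uninfused KO livers, against 16.3, 16.1, 26.98 and 36.1 RPKM in infused and 111, 95.05 and 121 RPKM in uninfused WT livers. The copies had interactions of opposite sign, −2.74 for Rnaset2a and 2.67 for Rnaset2b, and library 20 had the lowest Rnaset2a and the highest Rnaset2b among infused KO livers.

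**Figure D4:**
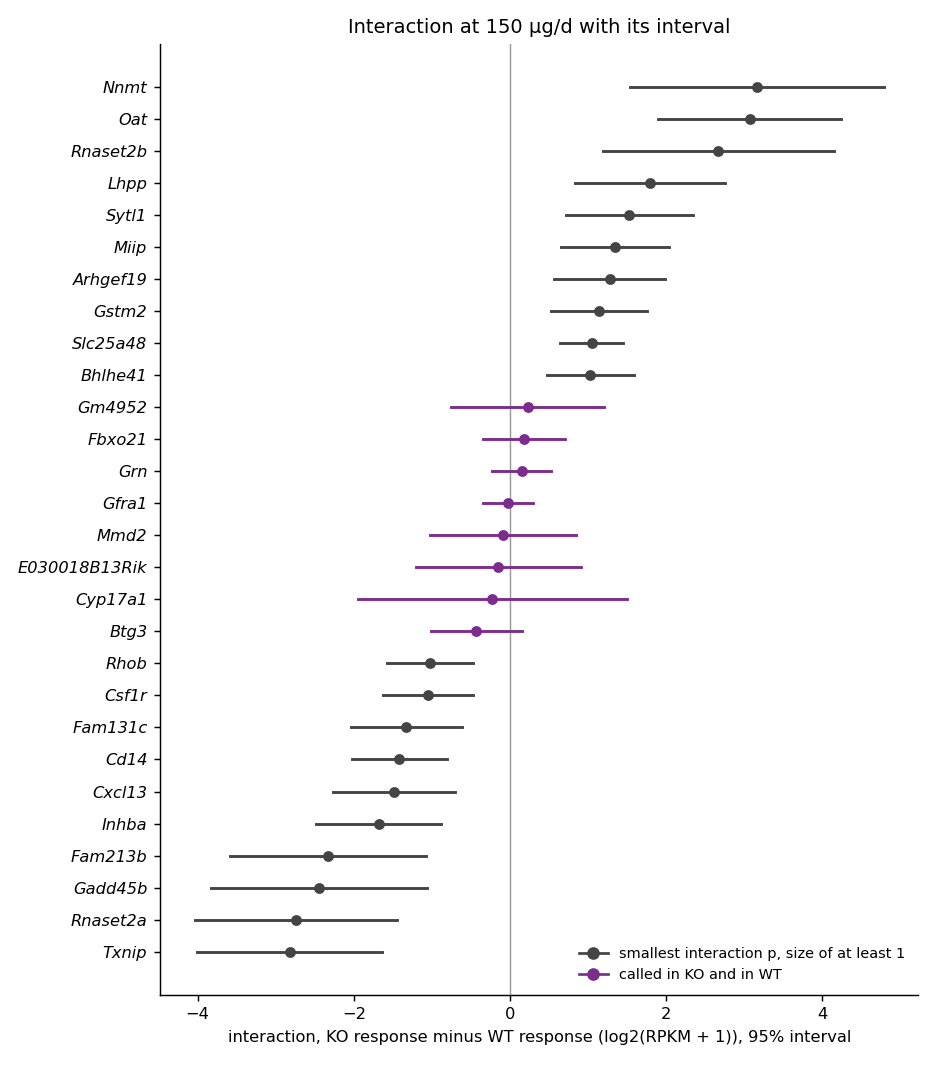
Interaction at 150 µg/d, the KO response minus the WT response in log2(RPKM + 1) (horizontal axis, points), with its 95% interval (lines), for the 20 genes with the smallest unadjusted p at a size of at least 1 (dark) and the 8 genes called in both genotypes (purple). The dark intervals exclude 0, although none of these genes passed the adjusted threshold, and all 8 purple intervals include it.

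Another pattern was a change in WT to a level near that of KO livers with and without infusion. Its genes were chosen after their values were seen, and none of their interactions was called. Mocos, which sulfurates the molybdenum cofactor, had 14.9, 13.8, 14.5 and 13.8 RPKM in infused KO livers, 13.4, 15.1 and 15.3 RPKM in uninfused KO livers, 13.8, 12.6, 14.4 and 15.5 RPKM in infused WT livers and 20.8, 22.2 and 22.2 RPKM in uninfused WT livers. The uninfused WT libraries lay above all others and the other groups overlapped. Mocos fell by 0.60 in WT (limma adjusted p = 0.00625), its KO response was −0.03 (adjusted p = 0.872), and the interaction was 0.56 (95% interval 0.31 to 0.81). Pdcd4, an inhibitor of translation, had 41.02, 34.2, 41.3 and 38.3 RPKM in infused and 41.6, 38.5 and 35.02 RPKM in uninfused KO livers, against 37.2, 34.7, 38.02 and 33.6 RPKM in infused and 57.03, 62.6 and 73.9 RPKM in uninfused WT livers. The proteasome subunit gene Psma5 and the clock repressor gene Bhlhe41 fell in WT too. The KO and WT responses were 0.01 and −0.82 for Pdcd4, 0.02 and −0.62 for Psma5, and −0.05 and −1.08 for Bhlhe41. In the other direction Nr1i2, the xenobiotic receptor PXR, had 33.1, 35.5, 31.04 and 31.2 RPKM in infused and 31.4, 25.1 and 25.04 RPKM in uninfused KO livers, against 34.6, 34.5, 28.99 and 31.4 RPKM in infused and 17.5, 19.1 and 18.9 RPKM in uninfused WT livers. Nr1i2 rose in WT by 0.77, with a KO response of 0.27 (adjusted p = 0.197, limma) and an interaction of −0.51 (95% interval −0.83 to −0.18). Without library 3 none of the 5 was called in WT.

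The promoters of 4 of these genes are shown because the cAMP response element is the element through which glucagon signalling is best known to act: Ebp and Oat had the smallest interaction p of all genes, Pck1 is the textbook target, and Mmd2 rose in both genotypes. Each run is the 250 bases before the start in the RefSeq promoter table, on GRCm38.p6 and on the gene's strand, with the core motif TGACG or its reverse complement CGTCA in capitals.
Oat promoter, chr7:132576399-132576648, minus strand: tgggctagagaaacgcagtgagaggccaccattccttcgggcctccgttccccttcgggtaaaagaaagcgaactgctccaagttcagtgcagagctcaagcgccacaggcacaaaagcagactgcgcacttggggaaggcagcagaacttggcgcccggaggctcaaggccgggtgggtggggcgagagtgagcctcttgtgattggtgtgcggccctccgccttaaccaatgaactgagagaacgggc
Ebp promoter, chrX:8193513-8193762, minus strand: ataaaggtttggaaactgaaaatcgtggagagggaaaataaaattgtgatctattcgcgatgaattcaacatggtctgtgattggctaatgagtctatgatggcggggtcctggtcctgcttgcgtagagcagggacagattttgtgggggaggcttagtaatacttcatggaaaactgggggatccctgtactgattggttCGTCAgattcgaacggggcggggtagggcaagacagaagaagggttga
Pck1 promoter, chr2:173152823-173153072, plus strand: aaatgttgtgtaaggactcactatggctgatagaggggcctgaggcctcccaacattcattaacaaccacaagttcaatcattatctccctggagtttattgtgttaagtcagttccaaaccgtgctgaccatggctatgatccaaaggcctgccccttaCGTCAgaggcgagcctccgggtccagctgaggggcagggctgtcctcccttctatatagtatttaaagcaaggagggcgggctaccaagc
Mmd2 promoter, chr5:142608753-142609002, minus strand: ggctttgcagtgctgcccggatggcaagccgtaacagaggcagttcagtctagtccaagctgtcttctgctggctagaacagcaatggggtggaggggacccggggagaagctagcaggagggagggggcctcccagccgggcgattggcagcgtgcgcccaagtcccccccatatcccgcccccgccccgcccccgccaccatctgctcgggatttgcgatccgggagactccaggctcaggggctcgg
The core motif stood at −48 to −44 from the start in Ebp and at −90 to −86 in Pck1, and these letters are not in the printed windows of Oat and Mmd2; Oat had it at base 34 after the start.

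The core motif was searched on either strand, and it is part of the full palindrome TGACGTCA, which was searched too. In windows of 250 bases before and 50 after the start, the core was in 6837 of 32851 windows of the table (20.8%) and in 30.6% of the 11791 windows of genes tested. It was in 2 of the 18 windows (11.1%) of the 20 genes with the smallest interaction p among those with an interaction of at least 1 log2 unit in size, 16 of which are in the table, in 1 of 9 windows (11.1%) of genes called in both genotypes, in 28.4% of the windows of genes higher and in 22.9% of those of genes lower in the average response. The full palindrome was in 2.92% of the windows of genes tested, in 0 of the 18 and the 9, and in 2.37% and 3.05% of those higher and lower in the average. Cyp17a1, Nnmt, Sds and Gls2 had no entry in the table. A match says that the letters are there, not that a factor binds.

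The enzymes of amino acid catabolism break down amino acids to carbon skeletons and ammonia. Their list held the most KO rises of any list in number, but it is also the longest. In the shorter lists of urea cycle and periportal genes, 4 of 8 and 8 of 25 rose. Of 61 genes tested, 15 rose and 1 fell, where 1.31% and 1.41% of all genes did, and none was called in WT. Besides those named below, Sdsl, Hgd, Acmsd, Aass, Bckdha, Mat1a and Gnmt rose. Of pyrimidine breakdown, Dpyd rose and Dpys fell. The list's median response was 0.27 in KO and −0.02 in WT, and its median interaction was 0.41. Of its 61 interactions 55 were positive, and 25 were so at an unadjusted limma p under 0.05, against 47.7% and 4.32% of all genes. The KO rises numbered 3 to 21 when libraries were left out in turn. Without library 4 they numbered 5 and the median interaction was 0.36 with 57 positive, and without library 19 they numbered 21.

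Gls2, the liver glutaminase (chromosome 10, 128194635 to 128210004), had 70.03, 210.3, 213 and 206 RPKM in infused KO livers and 44.3, 20.7 and 30.4 RPKM in uninfused KO livers. In WT it had 264, 233, 109.9 and 211 RPKM in infused and 155, 158 and 179.9 RPKM in uninfused livers. Library 19 lay far below the other infused KO livers, though above all uninfused ones, and library 17 was the lowest WT library. The interaction was 2.11 (95% interval 0.92 to 3.3) with an adjusted p of 0.21 in limma. Sds, serine dehydratase, had 52.9, 242, 269 and 235 RPKM in infused and 33.7, 11.9 and 24.9 RPKM in uninfused KO livers, against 338, 223, 90.6 and 251 RPKM in infused and 125, 140.4 and 128 RPKM in uninfused WT livers, and an interaction of 2.28 (95% interval 0.56 to 3.99). Got1, cytosolic aspartate aminotransferase, had 23.8, 189, 262 and 239.8 RPKM in infused and 21.4, 9.93 and 12.5 RPKM in uninfused KO livers, against 374, 252, 58.8 and 278 RPKM in infused and 101, 113 and 103 RPKM in uninfused WT livers. In Sds and Got1 as well, library 19 was the lowest infused KO liver and library 17 the lowest infused WT liver, and the Got1 interaction was 2.24 (95% interval 0.02 to 4.45).

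Tat, tyrosine aminotransferase, and Cth, which makes cysteine from cystathionine, rose in KO by 2.0 and 1.88, with WT responses of 0.64 and 0.45 that were not called and interactions of 1.37 (95% interval 0.15 to 2.58) and 1.44 (95% interval 0.07 to 2.8). Agxt2, a mitochondrial aminotransferase, and Ftcd, of histidine breakdown, had smaller interactions with narrower intervals. Agxt2 had 75.3, 70.9, 61.6 and 60.5 RPKM in infused and 47.4, 51.2 and 49.1 RPKM in uninfused KO livers, against 63.7, 72.1, 49.1 and 59.5 RPKM in infused and 70.2, 74.9 and 73.2 RPKM in uninfused WT livers, with an interaction of 0.69 (95% interval 0.33 to 1.06). Ftcd rose in KO by 0.52, and its interaction was 0.65 (95% interval 0.26 to 1.04).

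The urea cycle, which disposes of the ammonia, had positive median responses, 0.94 in KO and 0.30 in WT. Of 8 genes tested, Ass1, Asl, Arg1 and Nags rose in KO (1.31% of all genes did) and none was called in WT. Cps1, Asl, Arg1 and Nags were called higher in the average (1.86% of all genes were). Ass1, argininosuccinate synthase, had 877, 2836, 2854 and 2246 RPKM in infused and 790.5, 486 and 775 RPKM in uninfused KO livers, against 2814, 2774, 1243 and 2626 RPKM in infused and 1676, 1893 and 2138 RPKM in uninfused WT livers. Arg1, arginase, had 588, 1001, 1171 and 1105 RPKM in infused and 524, 350.2 and 471 RPKM in uninfused KO livers, against 888, 947, 774 and 1125 RPKM in infused and 688, 742 and 751 RPKM in uninfused WT livers. For Ass1 the WT groups overlapped through library 17 alone, while for Arg1 the infused livers lay above the uninfused ones in both genotypes. The interactions were 1.33 (95% interval 0.22 to 2.45) for Ass1 and 0.73 (95% interval 0.13 to 1.34) for Arg1. The list's median interaction was 0.52, and without library 4 it was 0.61. The KO rises numbered 1 without library 4 and 6 without library 19, and 0 to 6 over the libraries left out in turn. The 4 calls in the average numbered 2 without library 4 and 2 to 6 over the libraries left out.

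Among 20 amino acid transporters, 4 rose and 2 fell in KO (1.31% and 1.41% of all genes) and none was called in WT. The interactions split into 12 positive and 8 negative, where 47.7% of all genes had a positive one. Slc38a3, a glutamine transporter, rose in KO by 0.75 with an interaction of 0.70 (95% interval 0.15 to 1.25). Slc43a2, a carrier of neutral amino acids, had 2.29, 1.78, 2.04 and 2.27 RPKM in infused and 4.31, 2.86 and 3.62 RPKM in uninfused KO livers, against 2.18, 2.101, 2.27 and 2.15 RPKM in infused and 2.18, 2.37 and 1.96 RPKM in uninfused WT livers. It fell in KO, with an interaction of −0.56 (95% interval −0.85 to −0.28), as did the mitochondrial carrier gene Slc25a47, with −1.04 (95% interval −1.69 to −0.39). The other KO rises were Slc3a1, Slc1a5 and Slc16a10. Without library 4, 0 of the 20 were called higher and 1 lower in KO.

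Gluconeogenesis, the other textbook target of glucagon, had a median response of 0.27 in KO and 0.22 in WT. Of its 15 genes tested, Pck1 and Fbp1 rose in KO (1.31% of all genes) and none was called in WT. Pck1, Pck2 and Fbp1 were called higher in the average (1.86% of all genes), where 2 to 5 were when libraries were left out in turn. None had an unadjusted interaction p under 0.05. Pck1, phosphoenolpyruvate carboxykinase (chromosome 2, 173153073 to 173159274), had 1319, 1542, 2145 and 1344 RPKM in infused and 699.8, 403 and 457 RPKM in uninfused KO livers, against 2225, 1557, 764 and 1928 RPKM in infused and 942, 923 and 559 RPKM in uninfused WT livers. In KO the infused livers lay above the uninfused ones, and in WT they did so except for library 17. Pck1 was called in KO (1.62, limma adjusted p = 0.0161) and in the average (1.28, adjusted p = 0.00674), its WT response was 0.93 (adjusted p = 0.28), and the interaction was 0.69 (95% interval −0.30 to 1.67). Fbp1, fructose bisphosphatase, had responses of 1.11 in KO, which was called, and 0.50 in WT, which was not, with an interaction of 0.61 (95% interval −0.06 to 1.28). G6pc, which releases glucose, had 71.1, 190.4, 156 and 63.8 RPKM in infused and 221, 345 and 185 RPKM in uninfused KO livers, against 236, 185, 36.9 and 359 RPKM in infused and 184, 187 and 113 RPKM in uninfused WT livers. Infused and uninfused livers overlapped in each genotype, and the interval of its interaction, −3.07 to 0.78, was wide. For Ppargc1a, a coactivator induced by cyclic AMP, the responses were 0.82 in KO and 0.54 in WT and the interaction was 0.28 (95% interval −0.56 to 1.11).

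Upstream of these targets, the 23 tested genes of glucagon receptor and cAMP signalling had no call in KO or WT, where 2.72% and 0.293% of all genes had one, and Adcy9 and Crtc3 were called lower in the average, where 0 to 2 were when libraries were left out in turn. The list's median interaction was 0.07. Gcgr had 92.3, 73.7, 76.3 and 74.5 RPKM in infused and 70.3, 89.4 and 89.2 RPKM in uninfused KO livers, against 68.5, 76.5, 87.6 and 79.1 RPKM in infused and 93.9, 86.4 and 89.1 RPKM in uninfused WT livers. Infused and uninfused livers overlapped in each genotype and the interaction was 0.14 (95% interval −0.17 to 0.45). Rapgef4, the cAMP sensor Epac2, was the member with the smallest p: it had 43.4, 39.6, 50.1 and 54.96 RPKM in infused and 76.4, 60.5 and 58.8 RPKM in uninfused KO livers, against 64.8, 37.9, 51.2 and 66.04 RPKM in infused and 26.98, 40.5 and 31.9 RPKM in uninfused WT livers, with an interaction of −1.16 (95% interval −1.84 to −0.49) and no call.

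**Figure D5:**
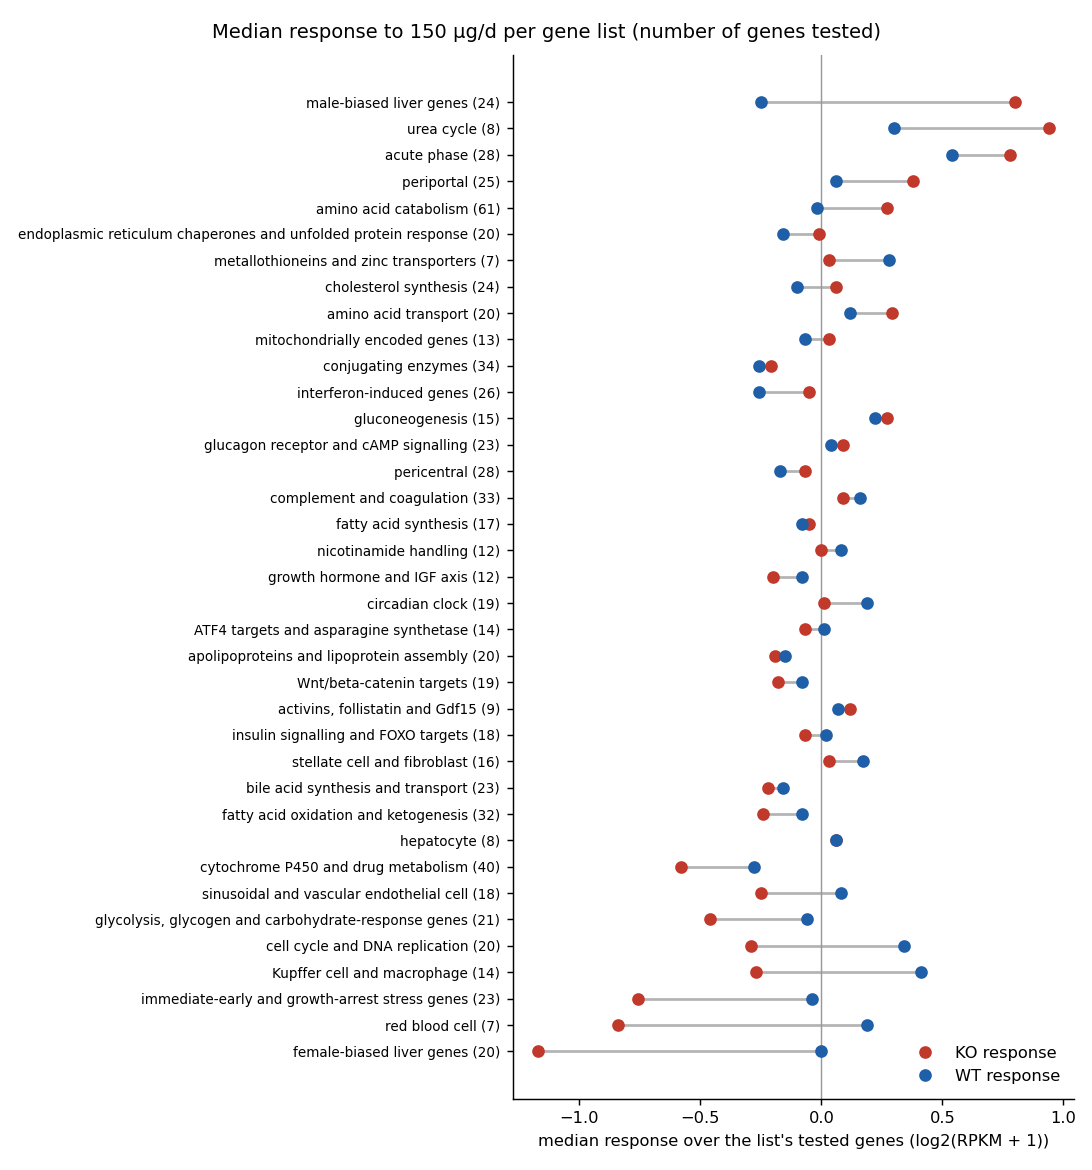
Median response to 150 µg/d over the tested genes of each list with at least 7 of them (number in brackets), in KO (red) and in WT (blue), in log2(RPKM + 1), ordered by the median interaction from top to bottom. Urea cycle and acute phase genes are above 0 in both genotypes, and the sex-biased and red blood cell lists have the widest gaps between KO and WT.

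The lists with a negative median interaction include stress and carbohydrate-response genes. Of 23 immediate-early and growth-arrest genes, which are induced within minutes to hours of a stimulus, 5 fell in KO (1.41% of all genes) and none was called in WT, with medians of −0.76 in KO and −0.04 in WT. Their median interaction was −0.76, with 18 of 23 negative and 7 negative at an unadjusted p under 0.05, against 5.92% of all genes. Besides Gadd45b, those that fell in KO were Gadd45a, the stress-induced transcription factor gene Atf3, Klf4 and Klf10. The interaction was −1.43 (95% interval −2.39 to −0.47) for Gadd45a and −1.99 (95% interval −3.88 to −0.10) for Atf3. Maff, a small transcription factor that was not called in KO, had an interaction of −1.56 (95% interval −2.54 to −0.59). The KO falls numbered 1 to 9 when libraries were left out in turn, and without library 4 they numbered 1 and the median interaction was −0.66.

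Of 21 genes of glycolysis, glycogen and carbohydrate response, Txnip, Arrdc3 and Rgs16 fell in KO (1.41% of all genes), with medians of −0.46 in KO and −0.06 in WT and a median interaction of −0.43. Arrdc3, a relative of Txnip, had 33.8, 45.7, 10.6 and 14.8 RPKM in infused and 93.5, 91.6 and 98.7 RPKM in uninfused KO livers, against 28.6, 43.5, 39.8 and 44.9 RPKM in infused and 31.2, 51.3 and 33.1 RPKM in uninfused WT livers. Uninfused KO livers were highest without overlap, and the interaction was −2.07 (95% interval −3.44 to −0.70). Rgs16, a regulator of G protein signalling, had 97.6, 13.4, 1.19 and 0.754 RPKM in infused and 301, 221 and 142 RPKM in uninfused KO livers, against 2.54, 8.04, 2.22 and 5.001 RPKM in infused and 11.8, 28.3 and 7.13 RPKM in uninfused WT livers. Its infused KO libraries spread over a wide range with library 19 highest, and the interaction was −3.09 (95% interval −6.53 to 0.36). Without library 4 only 1 of the 21 was called in KO, and the median interaction was −0.48. Igfbp2 and Igfbp1, which bind insulin-like growth factors and are on another list, had interactions of −1.16 (95% interval −2.25 to −0.07) and −2.23 (95% interval −5.73 to 1.27). Igfbp2 fell by 1.65 in KO, and without library 4, whose 771 RPKM was its highest value, the response was −1.10 with no call (limma adjusted p = 0.132).

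The markers of endothelial cells and macrophages are given first among those of liver cell types. In bulk RNA, fewer cells of a type and less RNA per cell cannot be told apart. Of 18 endothelial markers 17 had a negative interaction, 9 of them at an unadjusted p under 0.05, with a median of −0.35 (−0.25 in KO, where 3 fell, and 0.08 in WT, where none was called). Over all genes tested 47.7% had a positive interaction, 5.92% a negative one at an unadjusted limma p under 0.05, and 1.41% fell in KO. Cdh5, the endothelial cadherin, had 9.11, 8.05, 9.11 and 9.51 RPKM in infused and 13.3, 12.5 and 12.5 RPKM in uninfused KO livers, against 10.8, 8.67, 9.97 and 11.9 RPKM in infused and 9.64, 8.35 and 7.91 RPKM in uninfused WT livers. Uninfused KO livers lay above every other library, and the interaction was −0.70 (95% interval −1.01 to −0.39). Pecam1 and the angiopoietin receptor gene Tek, the other members that fell in KO, had interactions of −0.50 (95% interval −0.74 to −0.26) and −0.48 (95% interval −0.71 to −0.25). The summed level of the 18 markers was 165.5 to 187.8 RPKM in infused KO, 204.9 to 220.2 RPKM in uninfused KO, 170.7 to 185.6 RPKM in infused WT and 159.3 to 174.7 RPKM in uninfused WT livers, and none of the 18 was at 0 in any library. Without library 4 all 18 interactions were negative, with a median of −0.33, and 1 marker was called in KO.

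All 14 Kupffer cell and macrophage markers had a negative interaction, 10 of them at an unadjusted p under 0.05 (5.92% of all genes), and none was called in either genotype. Their median interaction was −0.69, and −0.72 without library 4, with median responses of −0.27 in KO and 0.41 in WT. Csf1r, the receptor for macrophage growth factor, had 17.8, 12.6, 18.4 and 18.7 RPKM in infused and 23.5, 25.6 and 26.6 RPKM in uninfused KO livers, against 23.2, 16.2, 22.1 and 27.9 RPKM in infused and 18.4, 14.6 and 13.7 RPKM in uninfused WT livers. Infused livers lay below uninfused ones in KO without overlap, and 3 of 4 lay above them in WT, and the interaction was −1.05 (95% interval −1.63 to −0.47). Adgre1, which encodes F4/80, and Timd4, of resident Kupffer cells, had interactions of −0.79 (95% interval −1.35 to −0.23) and −0.75 (95% interval −1.29 to −0.21). Cd14, a receptor for bacterial lipopolysaccharide, and the chemokine gene Cxcl13, which are not on the list but were among the 10 negative genes of the naming rule, had −1.42 (95% interval −2.02 to −0.81) and −1.48 (95% interval −2.26 to −0.70). The summed level of the 14 markers was 236.5 to 416.2 RPKM in infused KO, 367.1 to 394.7 RPKM in uninfused KO, 285.3 to 420.9 RPKM in infused WT and 246.9 to 332.5 RPKM in uninfused WT livers, and none was at 0 in any library. Of 16 stellate cell and fibroblast markers 12 had a negative interaction, with a median of −0.13, and of 5 cholangiocyte markers 3 had a positive one, with a median of 0.03. Of 7 red blood cell markers 6 had a negative interaction, with a median of −1.04, and −1.43 without library 4. Of 8 hepatocyte markers 7 had a negative interaction too, with a median of −0.2, and −0.16 without library 4. None of the markers of these 4 cell types was called in KO or WT. Few lymphocyte and neutrophil markers passed the filter on low values. Of 5 lymphocyte markers tested 3 had a negative interaction, with a median of −0.54 (0.35 in WT), and −0.36 without library 4. In KO 1 of the 5 rose (1.31% of all genes did), and 0 without library 4. Of 4 neutrophil markers tested 3 had a negative interaction, with a median of −0.37 (0.57 in WT), and none was called. The part of these cells in the results for other genes was not tested.

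Acute phase genes, which hepatocytes induce under inflammatory cytokines, had positive medians, 0.78 in KO and 0.54 in WT, with a wide spread between libraries. Of 28 genes, Orm2 and Stat3 rose in KO (1.31% of all genes), none was called in WT, and Orm2, Itih4 and Stat3 were called higher in the average (1.86% of all genes). When libraries were left out in turn, the KO rises numbered 1 to 7 and those in the average 1 to 9. The average call of Orm2 held in 7 of the 14 fits and ended without library 4 (limma adjusted p = 0.0851). Stat3, the transcription factor of that response, had 45.4, 34.6, 40.8 and 46.3 RPKM in infused and 19.9, 26.2 and 22.8 RPKM in uninfused KO livers, against 37.1, 29.6, 41.8 and 39.4 RPKM in infused and 30.1, 27.5 and 29.9 RPKM in uninfused WT livers, and an interaction of 0.51 (95% interval 0.12 to 0.91). Its feedback inhibitor Socs3 had an interaction of 1.6 (95% interval 0.37 to 2.83) with no call in KO or WT. Saa1, a serum amyloid A gene with near-identical copies whose reads could be shared, had 8245, 169, 3784 and 5234 RPKM in infused and 46.4, 137 and 536 RPKM in uninfused KO livers, against 639, 584, 7145 and 1021 RPKM in infused and 2492, 1192 and 96.9 RPKM in uninfused WT livers. Infused and uninfused livers overlapped in each genotype, and Saa1 was high in libraries 19 and 17, which were low in amino acid catabolism, and low in library 20. Orm2, of a family with similar copies, had a KO response of 4.01 that stayed called in 4 of the 14 fits that left out 1 library, and the metallothionein gene Mt2 had an interaction of 3.42 (95% interval −0.22 to 7.06).

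The lists of zonation share many members with these groups. Of 25 periportal genes 8 rose and 1 fell in KO (1.31% and 1.41% of all genes) and none was called in WT, with medians of 0.38 in KO and 0.06 in WT and a median interaction of 0.46. The 8 were Sds, Gls2, Ass1, Asl, Arg1, Pck1, Fbp1 and Ftcd. Without library 4 the periportal KO calls were 5 higher and 0 lower, and over the libraries left out in turn the rises numbered 1 to 11. Of 28 pericentral genes 4 rose and 4 fell in KO (1.31% and 1.41% of all genes), 1 and 3 without library 4, and the median interaction was 0.06. Landmark genes of the zones had intervals that include 0: −0.20 (95% interval −0.89 to 0.50) for Glul, glutamine synthetase, −0.15 (95% interval −0.81 to 0.51) for the pericentral cytochrome Cyp2e1, −0.12 (95% interval −0.73 to 0.49) for the Wnt target Axin2 and −0.04 (95% interval −0.54 to 0.46) for the periportal cytochrome Cyp2f2. None of the 4 was called in KO, WT or the average. Cyp2c37, a pericentral cytochrome of a family with similar copies, had 127, 58.1, 41.7 and 52.8 RPKM in infused and 445, 374 and 179 RPKM in uninfused KO livers, against 123, 105, 50.3 and 55.4 RPKM in infused and 92.2, 141 and 159.6 RPKM in uninfused WT livers, and an interaction of −1.56 (95% interval −2.66 to −0.45).

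Some lists had a median interaction nearer 0 once library 4 was left out. The median interaction of male-biased genes was 0.99, and −0.17 without library 4; that of female-biased genes was −1.11, and −0.07 without it; that of cell cycle genes was −0.60, and −0.09 without it; and that of cytochrome P450 and drug metabolism genes was −0.28, and −0.06 without it. Ccnd1, a G1 cyclin, had 55.9, 9.47 and 10.6 RPKM in uninfused KO livers, of which the first is library 4. For Cyp4a12b, a male-biased cytochrome, the interaction of 2.81 (95% interval 1.2 to 4.41) was 1.72 without library 4. The cytochrome P450 and drug metabolism list had median responses of −0.58 in KO, −0.34 without library 4, and −0.28 in WT. Of its 40 genes tested, 11 were called lower and 2 higher in the average response (2.67% and 1.86% of all genes). Without library 4 these calls numbered 8 and 2. Of 26 interferon-induced genes, 7 had a positive interaction at an unadjusted p under 0.05 (4.32% of all genes) and 2 fell in WT (0.207% of all genes). Their median interaction was 0.12, and 0.19 without library 4.

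The same interaction can be read as the KO minus WT difference under infusion minus that without it. Without infusion 179 genes (1.54%) differed between KO and WT, 92 higher (0.794%) and 87 lower (0.751%) in KO, and under infusion 3 did (0.0259%), all lower in KO: Mmd2, Robo1, a guidance receptor, and Zap70, a T cell kinase. KO minus WT was −1.04 under infusion and −1.14 without it for Robo1, and −1.21 and −1.77 for Zap70, so these 3 also differed without infusion. Both counts rest on single libraries, as fits chosen after the data were seen showed: without infusion 9 genes were called without library 3, 10 without library 2, 16 without library 4, 37 without library 1 and 83 without library 5, against 294 without library 6 and 292 without library 19. Robo1 and Zap70 were among the calls without library 2, 3 or 4. Under infusion 0 genes were called without library 15, 16, 19 or 21, where 189 to 273 had an unadjusted limma p under 0.05, and 3 or 4 were called without any other. At an unadjusted p under 0.05 the counts were 231 (1.99%) at 150 µg/d and 2025 (17.5%) without infusion. The SD over genes of the KO minus WT difference was 0.151 log2 units at 150 µg/d and 0.327 without infusion, where the median SE was 0.115 with 4 against 4 libraries and 0.133 with 3 against 3. The ratio of the SDs, uninfused over infused, was 2.17, and it was between 1.67 (without library 17) and 2.65 (without library 6) when libraries were left out. KO minus WT was −0.23 under infusion and −3.3 without it for Oat, −0.28 and −2.39 for Gls2, −0.56 and 2.27 for Txnip, 0.03 and 1.72 for Inhba, and 0.02 and −0.55 for Mocos. These 5 genes were named with their interactions known, and the interaction is the gap between these differences. They are examples and no test of the change in spread. None of the 5 was called in KO minus WT under infusion. Without infusion all 5 were called, and the call of Oat held without each of the 14 libraries. That of Inhba was lost without library 2, that of Gls2 without 2 or 3, that of Txnip without 1, 3 or 4 and that of Mocos without 2, 3 or 4.

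The interactions at 30 and 150 µg/d share the uninfused libraries, so their values are only set side by side. The interaction at 30 µg/d called Atxn1 alone (0.00863% of genes tested). Its interaction was 1.59 at 30 µg/d (limma adjusted p = 0.0167) and 0.56 at 150 µg/d (limma adjusted p = 0.425). At 30 µg/d, 10 genes (0.0863%) changed in KO, 2 higher (0.0173%) and 8 lower (0.069%), and 0 in WT, where 657 had an unadjusted p under 0.05.

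The KO levels of the leading genes can be followed over the doses. For Oat the interaction was 1.49 at 30 µg/d and 3.07 at 150 µg/d, and KO livers had 68.2 ± 14.6 RPKM without infusion (SD, n = 3), 164 ± 39.7 RPKM at 30 µg/d (n = 4) and 708 ± 311 RPKM at 150 µg/d (n = 4). For Txnip it was −2.6 and −2.82, and KO livers had 141 ± 40.8, 28.9 ± 18 and 20.1 ± 7.37 RPKM in order of dose. For Inhba it was −1.39 and −1.68, for Ebp 0.89 and 0.93, and for Gls2 1.21 and 2.11. The shared gene Grn stood at 49.8 ± 7.31, 44.8 ± 1.5 and 86.7 ± 14.9 RPKM in KO and at 50.9 ± 3.55, 53.7 ± 7.35 and 79.5 ± 6.56 RPKM in WT in order of dose, so its 30 µg/d means lay near the uninfused ones. Cyp17a1 stood at 2.004 ± 2.1 RPKM in KO and 3.29 ± 1.11 RPKM in WT at 30 µg/d, against 14.5 ± 12.4 and 29.5 ± 11.4 RPKM at 150 µg/d. The WT mean at 30 µg/d lay within the range of uninfused WT livers. The KO mean at 30 µg/d lay above every uninfused KO liver, with an SD larger than that mean.

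Of the KO changes named above, those of Oat, Ebp, Slc25a48, Nnmt, Lhpp, Gls2, Txnip, Inhba, Rhob, Mmd2, Grn, Slc43a2, Stat3, Tek and Cyp2c37 stayed called when each of the 14 libraries was left out in turn. Sds, Pck1, Fbp1 and Arg1 stayed called without library 4 but not without library 5, and Sds not without library 22 nor Pck1 without library 21. The calls of Got1, Ass1, Tat, Cth, Ftcd, Slc38a3, Slc25a47, Cyp17a1, E030018B13Rik, Btg3, Gfra1, Gm4952, Fbxo21, Ces2a, Csrp2, Miip, Sytl1, Gstm2, Arhgef19, Fam131c, Cd14, Arrdc3, Rgs16, Gadd45a, Gadd45b, Atf3, Igfbp2, Orm2, Cdh5 and Pecam1 ended without library 4, with adjusted limma p between 0.06 and 0.258, and their direction stayed. Many of these calls ended without other libraries too. Those of Got1, Cth, Csrp2 and Fam131c also ended without library 5, 6, 20, 21 or 22. Those of Ass1, Cdh5 and Gm4952 also ended without library 5, 20, 21 or 22. The calls of Gadd45b and Gfra1 ended without library 4 alone.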

How the data were processed

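RNA-seq of liver was compared in 14 of 22 libraries. Per the labels, the values deposited by the authors are RPKM per gene, already normalized for length and depth. Per the submitters' processing notes, CASAVA 1.8.2, FastQC and the GRCm38 build were used; for the aligner, the counting, its use of strand and the annotation, a name is not given in the sources used here. RPKM are not counts, so no count test was run. Each library's read total was chosen by the share of low values that it made whole reads, among genes of 1 transcript. At the chosen totals 63.7 to 69.1% of these values were whole within 0.1 read. Chance gives 20% at a total fixed in advance, which is no fair reference for a total chosen by this share. Reads were not recovered, and depth is an estimate. One read at 1 kb is worth 0.056 to 0.088 RPKM.

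Genes with a mean of at least 0.5 RPKM over the 22 libraries (11590 of 24475) were fitted with limma 3.58.1 (R 4.3.3) on log2(RPKM + 1), with 6 groups in one fit, a trend, 16 residual and 3.18 prior degrees of freedom, Benjamini-Hochberg adjustment over all genes tested and a threshold of 0.05. Intervals are 95%. The steps were tested on simulated data. Alternatives were pseudocounts of 0.1 and 0.5, no filter and a mean of 2 RPKM, scaling by the median of ratios or by quantiles, array weights, the 14 libraries alone, and leaving out libraries. The members and lists were chosen with earlier results of these data known. Named genes are the 8 called in both genotypes, the 10 positive and 10 negative interactions with the smallest p at a mean of at least 1 RPKM and a size of at least 1, up to 3 members of each list by interaction p, and 25 preset genes; all others, such as further called members of a list, were chosen after their values were seen. No interaction was called, so the promoters shown were chosen after the values were seen. Of the gene IDs, 24375 matched RefSeq (GRCm38.p6), the source of positions and promoters.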

Additional observations from a re-analysis of the deposited data

Results flagged for a closer look

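Among the groups of 4 infused livers, 12 of 156 gene and group combinations had a highest or lowest library whose gap to the nearest other exceeded the 95% critical value of Dixon's test relative to the group's range, which chance does in about 1 in 20 groups. Most involved library 19 or library 17. In infused KO livers, library 19 was low for Oat (244.6 RPKM, the others 822.4 to 910.4), Lhpp (16.96 RPKM, the others 49.17 to 54.95), Gls2 (70.03 RPKM, the others 206.5 to 213.2) and Sds (52.87 RPKM, the others 235.2 to 269). It was high for Rgs16 (97.64 RPKM, the others 0.754 to 13.38) and Gcgr (92.26 RPKM, the others 73.66 to 76.32). In infused WT livers, library 17 was low for Ass1 (1243 RPKM, the others 2626 to 2814) and high for Orm2 (2360 RPKM, the others 140.5 to 350.7) and Saa1 (7145 RPKM, the others 583.7 to 1021). The rest were Fam213b in library 22 (23.09 RPKM, the other infused KO livers 7.90 to 10.07), Csf1r in library 20 (12.57 RPKM, the other infused KO livers 17.82 to 18.74) and Mmd2 in library 16 (12.32 RPKM, the other infused WT livers 15.63 to 16.2).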

How the results depend on the processing

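Pseudocounts of 0.1 and 0.5, a mean of at least 2 RPKM and the scalings by the median of ratios and by quantiles kept 0 interaction calls, kept the KO and average counts within 1.5 times, and moved the WT count to 8 and that in both genotypes to 2 at a pseudocount of 0.1. Either scaling kept 6 of the 8 genes called in both genotypes and lost Gm4952 and Fbxo21. Without a filter on low values, more genes were tested, and the counts were 17 in WT, 349 in the average and 2 in both genotypes. With the 14 libraries alone, which leave fewer degrees of freedom, they were 182 in KO, 16 in WT and 3 in both. With array weights they were 66 in the interaction, 770 in KO, 438 in WT, 1334 in the average and 99 in both; the cause was not tested. Without library 4 and library 13, a KO liver at 30 µg/d that also had low male-biased genes, 93 genes were called in KO. Leaving out each of the 14 libraries in turn gave 0 to 5 calls in the interaction, 61 (without library 4) to 585 (without library 19) in KO, 0 (without library 3) to 60 (without library 19) in WT, 227 (without library 3) to 714 (without library 19) in the average, and 0 to 23 in both. The share of higher genes among the KO calls was 48.3%, and 67% and 60.3% under the scalings by the median of ratios and by quantiles, and among the WT calls 29.4%, and 42.9% and 46.9%. No paired analysis was possible because each library has a running number of its own that no other group shares. A level under about 0.1 RPKM is near 1 read for a transcript of 1 kb, which limits Mmd2, E030018B13Rik and Cyp17a1 in uninfused KO livers.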
